A study of Mus musculus with 2 samples.

Results

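Compact-like ventricular cardiomyocytes were 1406 of the 11640 barcodes for which the authors deposited embedding coordinates, 437 of 5408 in the control library and 969 of 6232 in the H2CKO library. A barcode was taken when Tnnt2, Myh6, Myh7, Actc1 and Myl7 together made up at least 2% of its UMIs (unique molecular identifiers, 1 for each captured transcript) and Myl2 reached at least 1000 CPM (a gene's UMIs relative to all UMIs counted with it, scaled to the usual counts-per-million unit). It also needed less than 250 CPM of the trabecular genes Nppb, Cited1 and Gja5 together, at least 1 UMI of Hey2 or Mycn, and fewer than 3 of the outflow tract genes Rspo3, Bmp4, Sema3c, Isl1 and Rgs5. The cells were thus chosen by the measured values of these genes, whose levels are given as a description only.

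The study profiled whole mouse hearts at E11.5 by droplet-based 3′ single-cell RNA sequencing, with 1 library per genotype. The material of both libraries was held on ice for 3 h. Control embryos were labelled Hand2fx/+R26RmTmG/wt, with 1 floxed Hand2 allele and no Cre, and H2CKO embryos Nfatc1Cre/wtHand2fx/fxR26RmTmG/wt, with both Hand2 alleles floxed. Both genotypes carried the mTmG reporter, which makes membrane Tomato before Cre has acted and membrane GFP afterwards, and neither the number nor the sex of the pooled embryos was labelled. With 1 library per genotype a difference compares 2 libraries without replicates, so no p-value was computed, and all intervals are 95% intervals that cover counting error only. Cre, Hand2 dosage and library cannot be told apart, and litter was not labelled.

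The embryonic ventricle has an inner network of trabeculae and an outer compact wall. Compact cardiomyocytes divide more often than trabecular ones and are marked by Hey2, a transcriptional repressor of the Notch target family, and by Mycn, a transcription factor that drives growth of the wall. Nfatc1-Cre acts in the endocardium, the inner lining of the heart, which sends neuregulin, Notch and BMP signals to the myocardium. Which cells Cre had acted on in these hearts was not tested.

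The cells held 12618560 UMIs in the control and 19370741 in H2CKO. Median depth was 25818 UMIs per cell in the control (range 6962 to 85325) and 17351 in H2CKO (6101 to 69549). Median genes per cell were 4941 and 3782, and 2656 and 2450.5 after each cell had been thinned to 8000 UMIs, which left out 4 and 33 shallower cells. The median mitochondrial share was 4.55% of UMIs in the control and 7.03% in H2CKO. The deposited embedding held no cell with fewer than 2501 genes in the control and 2002 in H2CKO. The libraries shared 57 barcode sequences, and no compact-like cell had the same barcode in both. Depth, mitochondrial share and this gene minimum all moved with genotype. With the control's gene minimum applied to both libraries, 437 and 904 cells remained, and all of the 69 tested genes picked for naming that were past 1.5-fold, the rule's genes not counted, stayed past it. That step removed only shallow H2CKO cells, which add little to the sums, so it could move the ratios little. Of the 69, 19 did not stay past it among cells of 12000 to 25000 UMIs, and 14 with at most 5% mitochondrial UMIs. Values at matched depth or low mitochondrial share are given beside some of the genes they bring within 1.5-fold.

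The markers Hey2, Mycn, Myl2 and Myh7 were all present in both libraries. Over the summed UMIs of these cells, Hey2 was at 98.3 CPM in the control and 92.8 in H2CKO, against 68.8 and 56.7 in trabecular-like cells and 35.5 and 21.9 in outflow-like cells. Mycn was at 53.8 and 43.7 CPM, against 37.6 and 25.8 in trabecular-like cells. These levels follow from the rule. Of the control cells, 265 carried UMIs of both Hey2 and Mycn, 119 of Hey2 only and 53 of Mycn only, and in H2CKO 369, 422 and 178 did. Exactly 1 UMI of either gene brought in 89 control cells (20.4%) and 332 H2CKO cells (34.3%), so more of the H2CKO cells sat at that edge. Just outside it, 101 control and 467 H2CKO barcodes met every other condition with no such UMI. At the trabecular limit, 69 and 142 cells lay at 200 to 250 CPM, and 55 and 111 barcodes lay just outside at 250 to 300. No cell lay within a further 250 CPM above the Myl2 limit, and 2 control barcodes and 0 H2CKO barcodes fell out at 750 to 1000. Between 2 and 2.5% sarcomere UMIs lay 96 and 196 cells, with 50 and 77 barcodes just under at 1.5 to 2%, and 85 and 73 barcodes were kept out by having 3 of the outflow genes.

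Compact-like cells made up 18.9% of the 2317 control cardiomyocyte barcodes (Clopper-Pearson interval 17.3 to 20.5%) and 24.9% of the 3888 in H2CKO (23.6 to 26.3%). The difference was smaller at equal depth. With every barcode thinned to 8000 UMIs before the rule was applied, the shares were 14.4% (13.0 to 15.9%) and 16.2% (15 to 17.4%), intervals that overlap. Cardiomyocytes that failed on the Hey2 or Mycn condition alone were 4.36% and 12%, and 10.9% and 18.2% after thinning. Outflow-like cells were 20% and 9.80%, and 11.4% and 5.67% after thinning. With the same gene minimum in both libraries and no thinning, the difference in the compact-like share was 6.17 percentage points, against 6.06 without it.

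**Figure D1:**
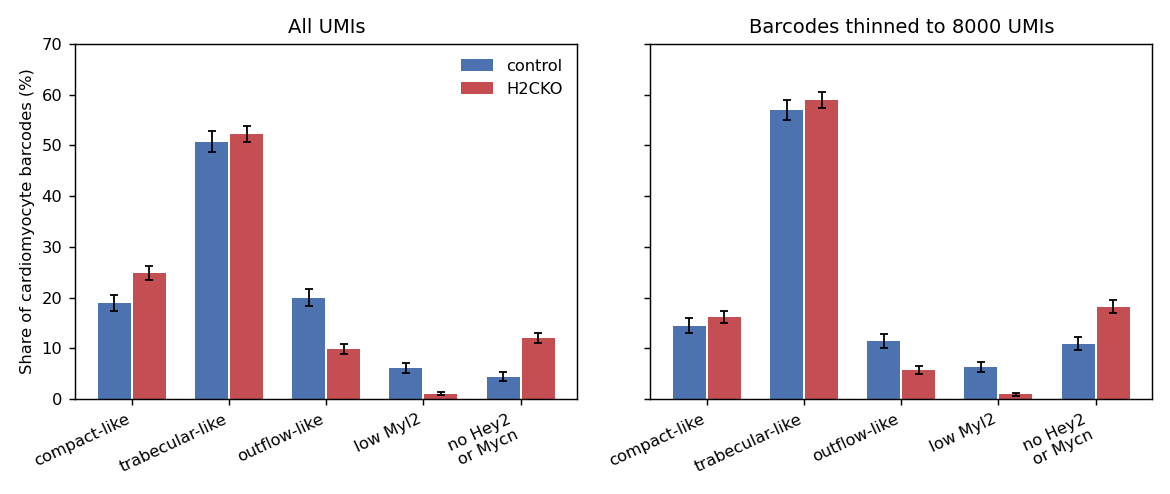
Share of cardiomyocyte barcodes (%) in each of 5 classes in the control (blue) and H2CKO (red) libraries, before (left) and after (right) thinning to 8000 UMIs; error bars are exact binomial 95% intervals. The compact-like shares are 18.9% and 24.9% on the left and 14.4% and 16.2% on the right.

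Between the libraries, 5705 genes were tested, meaning that they reached 20 CPM and 20 UMIs in the library where they were higher, with the genes of the rule left out. Ratios are log2 ratios, H2CKO over control, with 5 CPM added to both levels. Past 2-fold, 9 genes were higher in H2CKO (0.158% of those tested) and 61 were lower (1.07%), 70 in either direction (1.23%). Past 1.5-fold, 101 were higher (1.77%) and 752 lower (13.2%). The median gene lay at -0.17, and with ratios centred on it 29 genes were higher (0.508%) and 28 lower (0.491%) past 2-fold, and 272 (4.77%) and 287 (5.03%) past 1.5-fold. Centring evens out the directions by construction. Scaled without the rule's genes, haemoglobin and mitochondrial genes, 14 were higher and 60 lower past 2-fold, and 139 and 655 past 1.5-fold. The ratio also went down with the length of the gene in the genome: the median was 0.11 in the shortest 1141 genes and -0.41 in the longest 1141 (Spearman rho across 5704 genes -0.51, a description, since genes are not independent replicates). Of those 69 genes past 1.5-fold, 16 lay within it with that trend taken out, and those ratios are given with them.

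**Figure D2:**
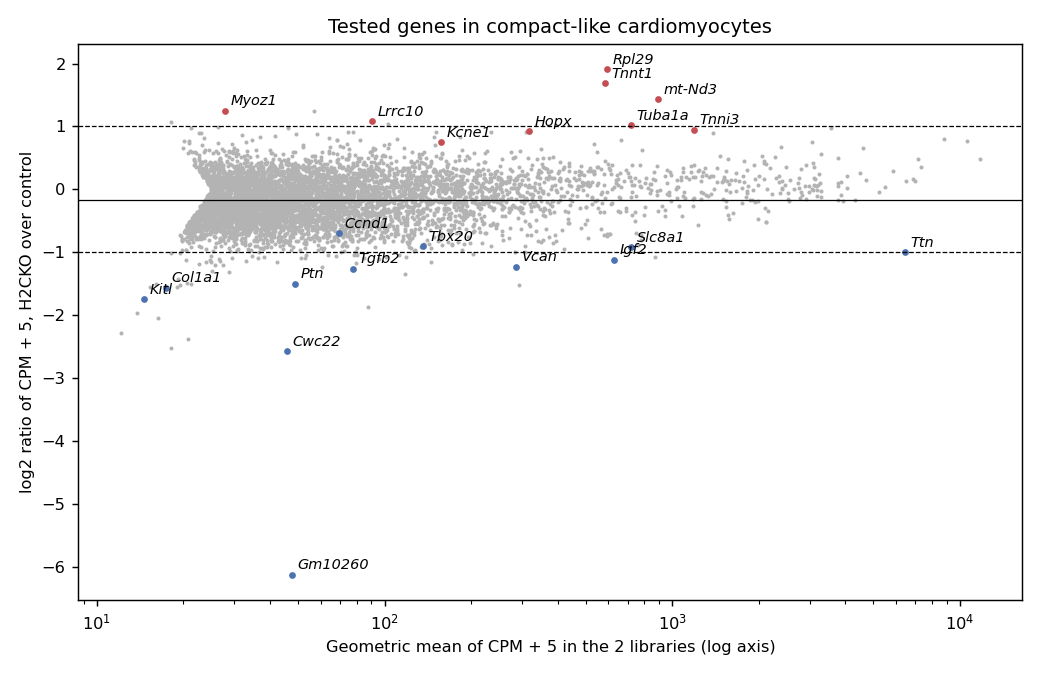
Log2 ratio of CPM plus 5, H2CKO over control, against the geometric mean level (log axis) for the 5705 tested genes in compact-like cells; dashed lines mark 2-fold and the solid line the median gene at -0.17. Tnnt1 (1.68) and Rpl29 (1.91) stand above the cloud, Cwc22 (-2.57) and Gm10260 (-6.12) below it.

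Tnnt1 and Tnni3, from a fixed list of sarcomere genes, were higher in the H2CKO compact-like cells, whereas the troponin C gene Tnnc1 was nearly level. Myoz1 and Lrrc10 were higher as well. They belong to none of the fixed lists and were named because their ratios were among the highest of all tested genes. Tnnt1, the slow skeletal troponin T that embryonic heart also expresses, was at 321.8 CPM in the control and 1045 in H2CKO, a ratio of counts of 3.25 (3.14 to 3.36). Tnni3, the cardiac troponin I whose rise marks maturing cardiomyocytes, was at 850 and 1649 CPM, 1.94-fold (1.90 to 1.98). Myoz1, a calcineurin-binding Z-disc protein, was at 13.1 and 38.1 CPM (log2 ratio 1.25), and Lrrc10, a cardiac leucine-rich repeat protein of the Z-disc, at 57.3 and 127 CPM (1.08). All 4 were higher in H2CKO under each of the 21 alternative settings tried, Tnnt1 by 1.5 to 1.96 on the log2 scale and Tnni3 by 0.47 to 1.13.

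Tnnt1 and Tnni3 are neighbours on chromosome 7, and the bases before their starts are shown with those of Lrrc10 as examples of contractile genes higher in H2CKO, chosen after their values were seen. Each line gives 250 bases upstream of the transcription start, 5′ to 3′ on the gene's strand, from RefSeq on GRCm38.p6. Capitals mark an E-box (CANNTG, the site that HAND factors and other bHLH proteins bind), a T-box half-site (GGTGTGA) or a GATA site (GATAA), searched on both strands.
Tnnt1, chr7:4515976-4516225, minus strand: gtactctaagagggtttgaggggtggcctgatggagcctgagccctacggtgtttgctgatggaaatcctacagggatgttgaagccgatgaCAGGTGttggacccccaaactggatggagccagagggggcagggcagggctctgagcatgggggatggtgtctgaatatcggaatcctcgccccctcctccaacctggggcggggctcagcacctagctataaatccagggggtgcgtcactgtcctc
Tnni3, chr7:4522529-4522778, minus strand: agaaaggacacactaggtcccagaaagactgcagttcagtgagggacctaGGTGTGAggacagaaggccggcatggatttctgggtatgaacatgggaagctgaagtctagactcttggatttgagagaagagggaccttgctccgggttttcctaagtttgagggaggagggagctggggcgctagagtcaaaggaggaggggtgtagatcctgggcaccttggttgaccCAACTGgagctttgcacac
Lrrc10, chr10:117045091-117045340, plus strand: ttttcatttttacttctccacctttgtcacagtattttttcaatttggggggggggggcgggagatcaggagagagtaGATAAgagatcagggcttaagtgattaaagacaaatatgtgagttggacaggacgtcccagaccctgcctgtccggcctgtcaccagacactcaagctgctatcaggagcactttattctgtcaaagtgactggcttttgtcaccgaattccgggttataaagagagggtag
The Tnnt1 window held 1 E-box, 158 to 153 bases before the start. The Tnni3 window held a T-box half-site at 200 to 194 bases and an E-box at 19 to 14 bases before the start. In the Lrrc10 window a GATA site lay 172 to 168 bases before the start. Of 27025 mouse promoter windows of the same length, 66.0% held an E-box, 23.0% the GATA site and 3.31% the T-box half-site, so only the last is uncommon. The letters of the MEF2 site and of the CArG box, present in 1.73% and 1.40% of windows, were not in these 3. The matches describe the sequence only.

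Over the sarcomere list, 21 genes outside the rule were tested, 3 were past 1.5-fold higher (among them Tnnt1 and Tnni3) and 1 lower (Ttn), where 1.77% and 13.2% of all tested genes were, with a median log2 ratio of 0.16 against -0.17 for all tested genes. Other sarcomere genes lay within 1.5-fold: Tnnc1 was at 4008 and 4079.5 CPM, and Tpm1 at 6644 and 7303 CPM. Myl3, the ventricular essential light chain, was at 6501 and 8281 CPM (0.35). Tnni2, a fast skeletal troponin I outside the list and named here after its values were seen, was at 221 and 422 CPM (0.92), and Tnni1, the slow skeletal form, at 2554 and 3341 (0.39). Ttn, which encodes the giant spring protein titin, had 9094 CPM in the control and 4546 in H2CKO, 0.500-fold (0.495 to 0.504), and its log2 ratio was -0.75 with the trend with gene length taken out. Among the genes of the rule, the ventricular light chain Myl2 was at 7600 and 11715 CPM and the alpha-myosin gene Myh6 at 1173 and 522 CPM, whereas the beta-myosin gene Myh7 was close at 2912 and 3111 CPM. Actc1, Tnnt2 and Myl7 lay within 0.10 of equality on the log2 scale.

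The spread over single cells adds to these sums. Myl2 and Myh6 were used by the rule, so their values are a description only. The 10th percentile, median and 90th percentile of Myl2 were 5032, 7657 and 10380 CPM in control cells and 8491, 11959 and 15924 in H2CKO cells, so the H2CKO median lay above the control 90th percentile. For Tnni3 they were 142, 760 and 1896 against 648, 1724 and 2741. Tnnt1 had medians of 124 and 371 but 90th percentiles of 769 and 3253, so the upper tail of its distribution differed more than the median. Myh6 had a median of 886 CPM in the control and 351 in H2CKO. Free RNA can add UMIs to any droplet: in erythroid barcodes, which should lack these genes, Myl2 was at 303 CPM in the control and 645 in H2CKO, Tnni3 at 52.2 and 88.9, and Tnnt1 at 13.4 and 36.6. Those levels were between 3.51% and 6.13% of the levels in compact-like cells.

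**Figure D3:**
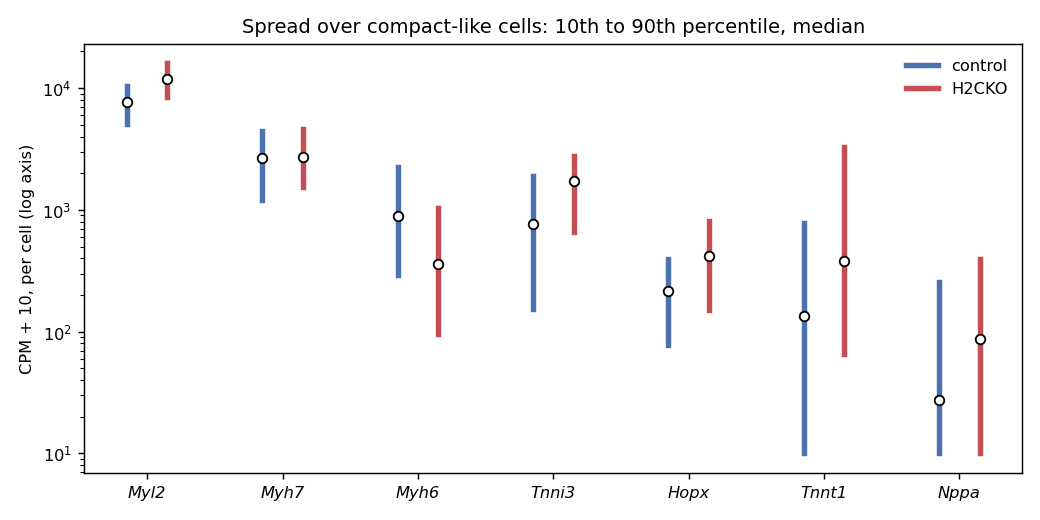
Spread over compact-like cells of 7 genes in CPM plus 10 (log axis), in control (blue) and H2CKO (red); bars run from the 10th to the 90th percentile and circles are medians. Myl2, Tnni3, Hopx and Tnnt1 lie higher in H2CKO, Myh6 lies lower, and Myh7 overlaps almost fully.

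Of 15 tested cardiac transcription factor genes, 1 was past 1.5-fold higher and 3 were lower, with a median of -0.37. Over all tested genes 1.77% were higher and 13.2% lower, and with centred ratios 1 of the 15 was lower, so the count lay near that of all genes. Hopx, an atypical homeodomain protein that marks cardiomyocytes leaving the progenitor state, was at 225 CPM in the control and 433 in H2CKO, 1.92-fold (1.84 to 2.01), and its median per cell was 205 against 408 CPM. Tbx20, a T-box factor needed for proliferation of the ventricular wall, was at 181 and 94.3 CPM, 0.521-fold (0.490 to 0.554). Tbx20 was detected in 73.0% of control and 47.5% of H2CKO cells at 8000 UMIs, against 9.58% and 4.86% of erythroid barcodes. Mef2a (128 and 74.3 CPM) and Myocd, the coactivator of SRF (83.8 and 51.8 CPM), were also past 1.5-fold lower, with ratios of -0.54 and -0.39 once the trend with gene length was taken out, so that both then lay within 1.5-fold. Nkx2-5, the core cardiac homeobox factor, was at 168 and 213 CPM (0.33), Gata4 at 86.0 and 65.3 (-0.37), Tbx5 at 19.1 and 18.2 and Irx4, the ventricular Iroquois factor, at 51.3 and 54.1. The Iroquois genes Irx1 and Irx2 were under the test's level but went from 1.27 to 10.6 and from 1.98 to 11.9 CPM; they were singled out after their values were seen.

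Hand2 itself was nearly level in these cells, at 94.7 CPM in the control and 88.3 in H2CKO, 0.932-fold (0.865 to 1.00). Hand1, its paralogue in the myocardium of the left ventricle, was at 24.2 and 16.0 CPM, 0.660-fold (0.562 to 0.776). At 8000 UMIs Hand1 was detected in 18.5% of control cells (14.9 to 22.5%) and 9.29% of H2CKO cells (7.51 to 11.3%), above the 1.75% and 1.80% of erythroid barcodes. Its level was higher in trabecular-like cells, at 92.2 and 66.6 CPM, and lower in H2CKO there too. Reporter GFP was at 10.4 CPM in the control, which carries no Cre by its label, and at 21.2 in H2CKO, where erythroid barcodes held 24.4 CPM. At 8000 UMIs GFP was found in 6.70% and 8.65% of compact-like cells and in 0.713% and 4.70% of erythroid barcodes. Erythroid cells can carry the reporter themselves, so they give no blank for it. The GFP log2 ratio of 0.77 turned to -0.01 without the cells of highest doublet scores and to -0.18 with a sarcomere minimum of 4%, so no direction is given for GFP. Tomato, under the level for a test, was at 17.8 and 3.87 CPM (-1.36, and between -1.94 and -1.04 under the 21 alternatives), against 2.22 and 0.625 CPM in erythroid barcodes.

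Genes of the compact wall outside the rule were few. Of 6 such genes 3 were tested and 2 were past 1.5-fold lower (13.2% of all tested genes were), Tbx20 and Ccnd1, the D-type cyclin that drives entry into the cell cycle (83.6 and 49.8 CPM, log2 ratio -0.69). Ccnd1 lay at -0.25 among cells with at most 5% mitochondrial UMIs, a group of 84 H2CKO cells. Ccnd2, the more abundant D-type cyclin here, was at 424 and 367 CPM (-0.21). Nppa, the atrial natriuretic peptide and a trabecular gene that the rule did not use, was at 106 CPM in the control and 192 in H2CKO (0.83). In trabecular-like cells Nppa was at 1277 and 3975 CPM, so compact-like cells stayed far below those in both libraries. The Nppa ratio was 0.46 without cells that held markers of other cell types and 0.55 with the length trend taken out, both within 1.5-fold. Cdkn1c, a cell-cycle inhibitor of trabecular myocardium, was at 851 and 819 CPM, and Bmp10, the trabecular growth factor, was near 0 with 13 and 62 UMIs. Of the atrial genes outside the rule 3 were tested and 1, Stard10 (7.53 and 21.2 CPM), was past 1.5-fold higher, where 1.77% of all tested genes were. The 4 outflow genes outside the rule, none of them tested, summed to 12.4 and 8.05 CPM.

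Genes of the cell cycle differed little as groups. Past 1.5-fold, 1.77% of all tested genes were higher and 13.2% lower. Of 17 tested S-phase genes none was past 1.5-fold (median 0.02), and of 18 G2/M genes 1 was, Cdc20, an activator of the anaphase-promoting complex, at 68.8 and 110 CPM (0.64, and 0.34 with the length trend taken out). Summed over the list, G2/M genes stood at 4112 CPM in control compact-like cells and 4012 in H2CKO, above the 3458 and 3188 of trabecular-like cells and the 3065 and 2960 of outflow-like cells. Cardiomyocytes that failed on the Hey2 or Mycn condition alone stood at 2094 and 2936 CPM, with a list median of 0.44. The level and the small difference in compact-like cells thus depend on that condition. Cells rich in G2/M transcripts were also deeper: median depth was 31890.5 UMIs in the 110 control cells with the highest share of them and 21462.5 in the 110 with the lowest, and 19469 and 13402 in 243 and 243 H2CKO cells. Among cells of 12000 to 25000 UMIs in both libraries the G2/M median was 0.69 in place of -0.02, so this group's position depends on how depth is matched. Among cell-cycle brakes, 1 of 9 tested genes was past 1.5-fold lower, a share near that of all genes: Cdkn1a, the inhibitor p21, at 42.5 and 23.8 CPM (-0.72), and its ratio was -0.14 at no more than 5% mitochondrial UMIs.

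Genes of extracellular matrix and secreted factors were mostly lower in H2CKO: 8 of 14 tested genes were past 1.5-fold lower, 5 of them past 2-fold, and none was higher, where 13.2% of all tested genes were past 1.5-fold lower and 1.07% past 2-fold lower. The list's median was -0.71, against -0.17 for all tested genes, and with centred ratios 5 of the 14 were past 1.5-fold lower. Vcan, the proteoglycan versican of the cardiac jelly, was at 435 and 182 CPM, 0.420-fold (0.402 to 0.438). Tgfb2, a secreted ligand that acts on the cushions, was at 115.5 and 45.4 CPM, 0.393-fold (0.361 to 0.428). Fn1 (fibronectin) was at 115 and 48.2 CPM, Ptn (pleiotrophin) at 77.2 and 24.1, and Hapln1, which links versican to hyaluronan, at 30.7 and 11.2. Vegfa, the main endothelial growth factor from myocardium, was at 82.7 and 48.0 CPM (-0.73), and the laminin genes Lamc1 (-0.74) and Lamb1 (-0.69) were past 1.5-fold as well. With the length trend taken out Lamc1 lay at -0.48 and Lamb1 at -0.42, both within 1.5-fold, and among cells of 12000 to 25000 UMIs Lamb1 was at -0.26, Lamc1 at -0.56, Ptn at -0.48 and Hapln1 at -0.52, all within 1.5-fold, with the list's median at -0.49. Among cells with at most 5% mitochondrial UMIs Vegfa lay at -0.07 and Hapln1 at -0.17.

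Markers of mesenchymal cells moved with this group. Of 9 mesenchymal markers 5 were tested and 4 were past 2-fold lower (1.07% of all tested genes were), namely Col1a1 (24.96 and 5.16 CPM), Col1a2, Col3a1 and Twist1, while Vim was at 499 and 628 CPM. The whole list summed to 655 CPM in the control and 668 in H2CKO with no marker at 0, but at 8000 UMIs at least 3 of the 9 genes were found in 12.5% of control cells and 2.56% of H2CKO cells. The epicardial list summed to 116 and 84.5 CPM, with Mpzl2 at 0 in both libraries, and Upk3b, one of its mesothelial genes, was at 22.1 and 4.54 CPM. The endothelial list summed to 44.1 and 41.9 CPM, with Cldn5 at 0 in the control, and none of its 12 genes reached the level for a test. The white blood cell list summed to 6.18 and 21.8 CPM and the erythroid list to 3343 and 4217 CPM, mostly Hbb-y and Hba-x. Of the Y-linked genes, Ddx3y was at 49.1 and 33.0 CPM and Eif2s3y at 57.0 and 63.9, so both libraries held male cells.

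With cells left out that held 3 or more mesenchymal, epicardial or endothelial markers, Vim not counted, 273 control and 789 H2CKO cells remained. The ratio was then -0.16 for Ptn, -0.30 for Col1a1, -0.33 for Twist1 and -0.13 for Upk3b, all within 1.5-fold. Hapln1 lay at -0.52, Fn1 at -0.73, Vcan at -0.92 and Tgfb2 at -1.15, and the list's median at -0.60. Col1a1, Twist1 and Upk3b are themselves among the markers used to leave cells out, so their smaller differences follow in part from that choice. Ptn is not among them and lay within 1.5-fold in the remaining cells, while Tgfb2 and Vcan were past it there as well. Tnnt1 (1.53), Hopx (0.87), Tbx20 (-0.86) and Igf2 (-1.18) stayed past 1.5-fold in those cells.

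**Figure D4:**
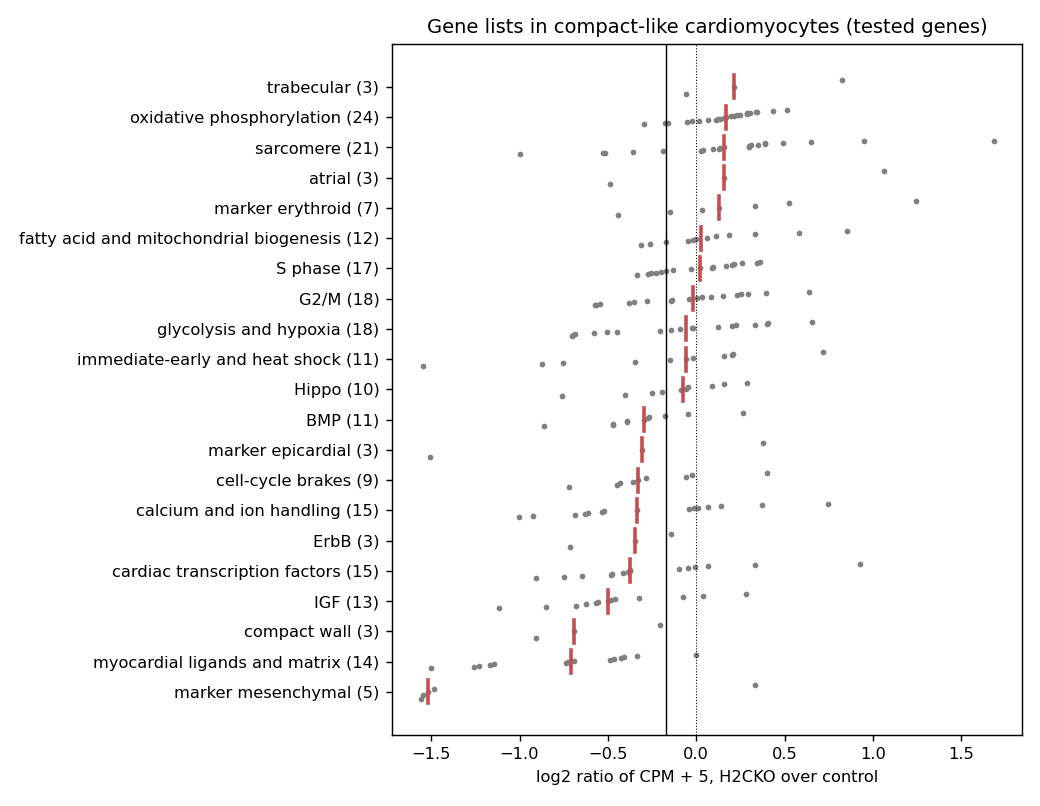
Log2 ratio of CPM plus 5, H2CKO over control, for the tested genes (grey points) of each list, with the list's median in red and the number tested in brackets; the solid black line is the median of all 5705 tested genes at -0.17. Myocardial ligands and matrix (-0.71) and IGF genes (-0.50) lie to its left, sarcomere (0.16) and oxidative phosphorylation genes (0.17, but -0.07 with the length trend taken out) to its right.

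Genes of insulin-like growth factor signalling, a mitogenic pathway of the compact wall, had a median of -0.50, and of -0.27 with the length trend taken out, against -0.17 for all tested genes. Of 13 tested genes 4 were past 1.5-fold lower and none higher, against 13.2% lower over all tested genes, and 2 were lower with centred ratios. Igf2, the ligand, was at 918 CPM in the control and 421 in H2CKO, 0.458-fold (0.445 to 0.471), and stayed between -1.29 and -0.94 under the 21 alternatives. The Igf2 difference was not particular to compact-like cells. Its ratio was -1.11 in trabecular-like, -1.03 in outflow-like, -1.07 in low-Myl2 and -1.15 in Hey2- and Mycn-free cardiomyocytes. In those classes the list's median was -0.38, -0.49, -0.23 and -0.69. Igf2r, the clearance receptor, was at 513 and 283 CPM, and the mRNA-binding proteins Igf2bp1 (129 and 81.9) and Igf2bp2 (82.3 and 49.4) were also past 1.5-fold lower. Igf1r, the signalling receptor, was at 121 and 80.1 CPM (-0.57). With the trend with gene length taken out, Igf2bp1 and Igf2bp2 lay at -0.40 and -0.43, within 1.5-fold, and Igf2r at -0.62.

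Receptors and targets of ErbB, BMP, Notch, Hippo and FGF signalling were read from fixed lists, where 13.2% of all tested genes were past 1.5-fold lower and 1.77% higher. Of 3 tested ErbB genes 1 was past 1.5-fold lower. Erbb4, a neuregulin receptor, was at 44.9 and 25.4 CPM (-0.71), but at -0.25 among cells of 12000 to 25000 UMIs and -0.46 with the length trend taken out, whereas its partner Erbb2 was at 42.7 and 38.3 CPM. Of 11 tested BMP genes 1 was past 1.5-fold lower, no larger a share than the 13.2% of all tested genes: Bmpr2, the type II receptor, at 57.7 and 29.5 CPM (-0.86), and the BMP target genes Id1, Id2 and Id3 lay between -0.39 and -0.18. In the Hippo list 1 of 10 tested genes was past 1.5-fold lower, again near the 13.2% of all genes: Tead1, a DNA-binding partner of YAP, at 189 and 109 CPM (-0.76). Tead1 is a long gene and lay at -0.51 with the length trend taken out and at -0.52 among cells of 12000 to 25000 UMIs, both within 1.5-fold. Of the Notch list 2 genes were tested and none passed, with Rbpj at 35.5 and 23.0 CPM and Hes1 at 22.2 and 26.2. Spry2, a feedback inhibitor of FGF signalling and the only tested gene of its list, was at 37.8 and 23.0 CPM (-0.61), and at -0.42 without cells holding markers of other cell types.

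Of 15 calcium and ion handling genes 1 was past 1.5-fold higher and 5 were lower, where 1.77% and 13.2% of all tested genes were. With centred ratios 2 of them were lower. Slc8a1, the sodium-calcium exchanger of early heartbeats, was at 987 and 518 CPM (-0.92, and -0.67 with the length trend taken out). Ryr2, the sarcoplasmic calcium release channel, was at 367 and 235 CPM (-0.63), and the L-type channel genes Cacna1c (-0.69) and Cacnb2 (-0.61) were lower by similar amounts. These 3 lay between -0.44 and -0.36 with the length trend taken out, all within 1.5-fold. Gja1, which encodes the gap junction protein connexin 43, was at 107 and 50.7 CPM and remained at -0.95 after that step. Kcne1, a potassium channel subunit, was at 116 and 198 CPM (0.75, and within 1.5-fold at 0.58 among cells of 12000 to 25000 UMIs), and Pln, the inhibitor of the calcium pump, at 771 and 999 CPM (0.37).

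Among metabolic genes the 24 tested oxidative phosphorylation genes had a median of 0.17, which turned to -0.07 with the length trend taken out, and none passed 1.5-fold. Of 13 genes encoded in the mitochondrial genome 6 were past 1.5-fold higher and 1 lower (median 0.49), against 1.77% and 13.2% of all tested genes, and mitochondrial UMIs in all were 4.80% of the summed UMIs in the control and 7.11% in H2CKO. Of 12 tested genes in a list of fatty acid and mitochondrial biogenesis genes only Ckm, the muscle creatine kinase and not itself a fatty acid gene, passed, at 25.8 and 50.8 CPM (0.86). Ckm lay at 0.15 with at most 5% mitochondrial UMIs and at 0.03 with a sarcomere minimum of 4%, so the call rests on the choice of cells. Of 18 tested glycolysis and hypoxia genes 1 was past 1.5-fold higher and 3 were lower, where 1.77% and 13.2% of all tested genes were. The list's median was -0.06 and none was lower with centred ratios, so the count lower lay near that of all genes. Gapdh was at 3660 and 5771 CPM (0.66, and 0.35 with the length trend taken out). Eno1 (772 and 472 CPM), Bnip3 and Slc2a3, the last 2 being hypoxia-responsive, were past 1.5-fold lower. Bnip3 and Slc2a3 turned to 0.18 and 0.36 at no more than 5% mitochondrial UMIs, and Slc2a3 lay at -0.46 with the length trend taken out. In the list of immediate-early and heat shock genes, which respond to cell dissociation, Ier2 was higher (0.72) and Fosb (-1.55), Atf3 (-0.87) and Hsph1 (-0.75) were lower among 11 tested genes, against 1.77% and 13.2% of all tested genes. Ier2 lay at 0.44 with the length trend taken out, and Atf3 at -0.17 with at most 5% mitochondrial UMIs. Fosb lay at 0.01 with a sarcomere minimum of 4%, and Hsph1 at -0.58 with centred ratios, just within 1.5-fold.

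Several of the most extreme genes were near-copies of other genes, whose counts depend on how reads are assigned. Whether both libraries were counted with the same gene annotation, and whether the embryos shared a strain background, is not given in the sources used here, although both matrices list the same features. Gm10260, which RefSeq lists as the pseudogene Rps18-ps6, had 4974 UMIs in the control and 14 in H2CKO, and Rps18 itself was at 1881 and 2997 CPM. Gm11361 (-2.52), which RefSeq lists as Rps18-ps5, Gm8797 (-2.37), Tpm3-rs7 (-2.28) and Eif3j2 (-1.96) are of the same kind. Cwc22, a splicing factor, was at 106 and 13.7 CPM, BC004004 at 162 and 40.6, Psd at 28.3 and 3.05, and Kitl, the KIT ligand, at 21.7 and 2.99. At the other end Rpl29, a ribosomal protein gene, was at 301 and 1146 CPM while the 84 tested ribosomal protein genes had a median of 0.02. Also high were mt-Nd3 (1.43), Hbb-bs (1.25), Stard10 (1.07), mt-Atp8 (1.04), the tubulin gene Tuba1a (499 and 1019 CPM), Mns1 (0.99), Igfbpl1 (0.97) and mt-Nd2 (0.97). Gm10260, Cwc22 and Rpl29 had ratios of -6.20, -2.62 and 1.83 in trabecular-like cells, close to those in compact-like cells, so these differences ran across cardiomyocytes. The direction of most other called genes did so too, as given below.

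The other classes of cardiomyocyte barcodes, which share no cells with the compact-like class but come from the same libraries, were compared in the same way, and their values are given side by side. Cardiomyocytes low in Myl2, 140 in the control and 39 in H2CKO, had 133 genes higher and 321 lower past 2-fold of 4965 tested, with Tnnt1 at -1.11, Tgfb2 at 1.31 and Nppa at -3.10, opposite in sign to compact-like cells for these genes, which does not hold for all genes. Markers of other regions differed between the libraries in that class: Nr2f1, an atrial gene, was at 144 and 37.3 CPM there, and the outflow genes Bmp4 and Rspo3 at 16.3 and 314 and at 153 and 549 CPM. Past 2-fold in the rest, 19 genes were higher and 30 lower of 5543 in trabecular-like cells, 15 and 86 of 5982 in outflow-like cells, and 17 and 235 of 5878 in the Hey2- and Mycn-free cells, which failed the rule on that condition alone. Tnnt1 was at 1.68 in compact-like cells, 1.44 in Hey2- and Mycn-free, 1.07 in trabecular-like and 0.75 in outflow-like cells, and Tgfb2 at -1.26, -1.03, -0.90 and -0.48. For both genes the Hey2- and Mycn-free cells were thus the nearest in ratio to the compact-like cells. Nppa was at 0.83 in compact-like cells, 0.72 in Hey2- and Mycn-free and 1.63 in trabecular-like cells. Ttn, Slc8a1, Tbx20 and Vcan lay farther from 0 in Hey2- and Mycn-free than in compact-like cells. Most genes called in compact-like cells kept their direction elsewhere. Of the 752 past 1.5-fold lower, 752 were below 0 in trabecular-like, 751 in outflow-like, 749 in Hey2- and Mycn-free and 623 in low-Myl2 cells. Of the 101 higher, 101, 100, 95 and 73 were above 0. Over all genes tested in trabecular-like cells 66.9% were below 0 and 33.1% above. With 1 library per genotype differences between classes were not tested.

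**Figure D5:**
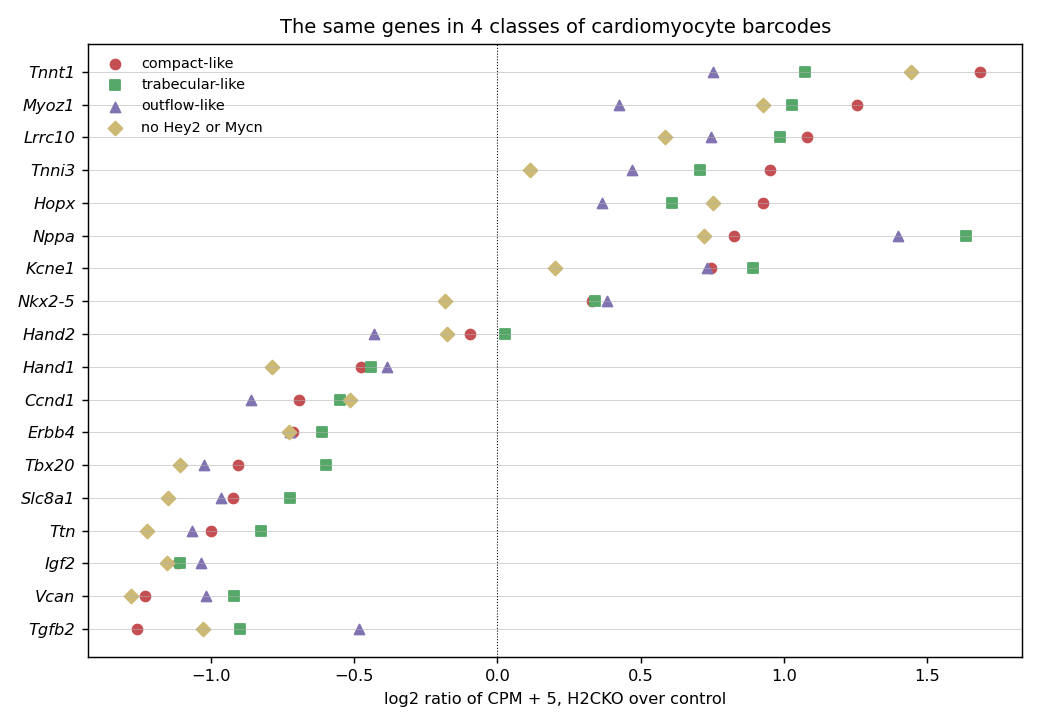
Log2 ratio of CPM plus 5, H2CKO over control, for 18 named genes in compact-like (circles), trabecular-like (squares), outflow-like (triangles) and Hey2- and Mycn-free (diamonds) cardiomyocytes. All classes come from the same 2 libraries. Cells low in Myl2 are not drawn. Among the classes drawn, Tnnt1 and Tgfb2 lie farthest from 0 in compact-like cells. Ttn, Slc8a1, Tbx20 and Vcan lie farthest from 0 in Hey2- and Mycn-free cells, and Nppa in trabecular-like cells.

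Variation among the compact-like cells was described along 2 chosen measures, the share of G2/M transcripts and the presence of Hand1. Between the cells with the highest and the lowest share of G2/M transcripts (110 and 110 in the control, 243 and 243 in H2CKO), 239 of 5080 genes were past 1.5-fold higher in both libraries and 37 lower in both, with the G2/M list and the genes of the rule not counted. The highest outside that list were mitotic genes, among them Prc1, a midzone crosslinker (444 against 6.50 CPM in the control and 380 against 11.1 in H2CKO), Hmmr and Kif23. Lower in the G2/M-rich cells were the S-phase genes Ung (11.7 against 66.2 CPM in the control, 11.9 against 79.3 in H2CKO), Ccne2 and Cdt1, and Rrad, a small GTPase that restrains calcium channels (124.7 against 268 and 184 against 385 CPM). Tnni3 had a log2 ratio of -0.26 between G2/M-rich and G2/M-poor cells in both libraries, and Ccnd1 one of -0.86 and -0.56.

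Cells with at least 1 Hand1 UMI were 161 of 437 in the control and 172 of 969 in H2CKO, and they were deeper (median 29145 against 24525.5 UMIs, and 18490.5 against 16928). Of 5055 genes, Hand1 and the genes of the rule not counted, 3 were past 1.5-fold higher in Hand1-positive cells of both libraries (Nppa, Spint2 and Mrap) and none was lower. Cited1, which the rule limits, was at 85.1 against 48.3 CPM in the control and 88.2 against 45.7 in H2CKO, and Nppa at 141 against 82.2 and 285 against 170. Tbx5, the T-box factor of the left ventricle, was at 27.1 against 13.6 CPM and 24.9 against 16.5. Spint2, Mrap, Itm2a, Me1 and Efnb3 were the other genes highest in both, the last 3 within 1.5-fold in at least 1 library. Tnni2, the fast skeletal troponin I, was lower in Hand1-positive cells, at 180 against 249 CPM and 244 against 466, followed by Hist1h1c, Eef1a2, Cenpv and Crip1. Hey2 and Mycn did not follow the split, with ratios between -0.06 and 0.06.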

How the data were processed

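The authors deposited UMI counts of whole E11.5 mouse hearts as 1 matrix per library, with 1 barcode per column per the file headers and whole-number values that carry no normalisation, control and H2CKO, 14114 and 13885 barcodes with 195825720 and 201477256 UMIs. Per the submitters' processing notes, Cell Ranger 5.0.1, Seurat 4 and GRCm38.p6 were used, in roles not given in the sources used here. The deposited embedding coordinates, a score with no unit, only marked which barcodes to use. Of 22401 features, 22285 matched a gene symbol by Ensembl ID, and gene lengths came from GENCODE vM21.

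The cells, gene lists and split rules were chosen with earlier results of these data known. UMIs of the chosen cells were summed per library into CPM. Genes with at least 20 CPM and 20 UMIs in the higher library were tested by size alone (2-fold, and 1.5-fold as a second limit) with a pseudocount of 5 CPM. Named genes are the 12 highest and 12 lowest ratios, list genes past 1.5-fold, a fixed set of compact wall and HAND-related genes, and the 8 highest and 8 lowest genes of each split. The alternatives tried, their effect and the lists are given with the results. Intervals are exact Poisson, Clopper-Pearson or exact conditional (scipy 1.17.1), at 95%. Doublets were scored with Scrublet (scanpy 1.11.5), whose automatic threshold marked none, and the top 5% were left out as an alternative. The method was tested on simulated counts. Thinning drew 8000 UMIs per cell with a fixed seed (1). Erythroid barcodes are those with at least 20% haemoglobin UMIs. A gene of the sarcomere list is counted with the list but is not reported here by name.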

Additional observations from a re-analysis of the deposited data

How the results depend on the processing

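No paired analysis was possible because each genotype has 1 library, and for the same reason no library could be left out. Against 9 higher and 61 lower genes past 2-fold, the counts were 122 and 191 with sarcomere genes at 4% or more of UMIs (23 control and 50 H2CKO cells), 40 and 173 with at most 5% mitochondrial UMIs (263 and 84 cells), 29 and 28 centred on the median gene, 14 and 112 with a pseudocount of 1 CPM, and 16 and 33 among cells of 12000 to 25000 UMIs. Higher genes numbered 16 with no outflow gene detected, 14 scaled without rule, haemoglobin and mitochondrial genes and 16 with a filter of 20 UMIs only, and lower genes 20 with a filter of 100 CPM. The compact-like share was 6.06 percentage points higher in H2CKO, 1.77 on barcodes thinned to 8000 UMIs, 13.7 without the Hey2 or Mycn condition, 3.45 with the stricter trabecular limit, and 15.5 with at most 5% mitochondrial UMIs. The cause was not tested.

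Of 69 tested genes picked for naming that were past 1.5-fold, the rule's genes not counted, 61 kept their direction under all 21 alternatives and 32 stayed past 1.5-fold. Within 1.5-fold or reversed were 19 of them at 12000 to 25000 UMIs, 18 when centred, 16 with the trend with gene length taken out and 14 with at most 5% mitochondrial UMIs. Some of the 21 could hardly move a ratio. The filters of 100 CPM and of 20 UMIs only change which genes are tested, and a Myl2 limit of 2000 CPM kept 435 and 968 cells. The mesenchymal markers' median reversed to 0.92 with sarcomere genes at 4% or more, 0.53 with no outflow gene, 0.33 with the filter of 100 CPM, 0.57 without cells holding other-type markers and 0.61 at 12000 to 25000 UMIs, each of them the value of 1 gene left tested. At 4% sarcomere UMIs Fosb (0.013), Col1a2 (0.53), Upk3b (0), Ptn (0.11) and GFP (-0.18) reversed, at 5% mitochondrial UMIs Bnip3 (0.18) and Slc2a3 (0.36), without the top Scrublet scores GFP (-0.0086), and at 12000 to 25000 UMIs Col3a1 (0.15). The settings that leave out cells with other-type markers or outside that UMI window, and the groups by G2/M content, were chosen after seeing the data; the planned G2/M split left 1 cell per library without such a UMI. A gene at the minimum of 20 CPM rests on 252 control or 387 H2CKO UMIs.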
